A study of Mus musculus with 6 samples.

Results

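Pressure overload was examined in wild-type hearts on 3 of the 6 arrays of the series: 1 array of a sham-operated wild-type mouse heart and 2 arrays of wild-type hearts after TAC. The arrays were chosen by their titles. TAC is thoracic aortic constriction, in which a band narrows the aorta so that the left ventricle pumps against a raised pressure. All mice were on the FvB background, labelled as 8 weeks old (the series' design text gives the age in years), and hearts were collected 3 weeks after surgery. The other 3 arrays, 1 sham and 2 TAC, came from mice of the same background with a JMJD2A transgene described as specific to the heart. JMJD2A is a histone demethylase encoded by Kdm4a, and the promoter that drives the transgene is not named in the labels. They are used below as a second, separate TAC comparison. They also enter the choice of probe, the intensity filter and the spread in the test over all 6 arrays. The labels do not state the sex of the mice, nor whether 1 heart or several went into an array. The sample titles say heart and do not state which parts of it were taken. RNA of this tissue was measured, so a larger number of cells of a type and more RNA per cell cannot be told apart anywhere below.

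A ventricle under raised pressure is known to thicken. Its muscle cells take up a gene programme of the fetal heart, with natriuretic peptides, slow myosin and skeletal actin. Fibroblasts lay down collagen between the muscle cells, and the adult heart's reliance on fatty acids as fuel is known to weaken. The genes below are ordered along these lines: muscle growth genes and their promoters, signals, extracellular matrix, fuel use, excitation, and blood and immune genes.

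All levels are log2 of the deposited intensity, so a difference of 1 is a 2-fold change and a difference of 0.5 a 1.41-fold change. The scale ran from an array median of 5.82, close to background, to 14.66, so differences of genes near either end are understated. Of 19053 genes on the arrays, 11166 passed an intensity filter and were compared. Heart muscle genes marked all 3 arrays as heart: Myh6, Myl2, Actc1, Ryr2 and Tnni3 lay between the 95.8 and the 99.9 percentile of genes. Kdm4a was at 6.70 on the sham array and at 6.51 and 6.64 after TAC.

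The sham side holds 1 array, so its own spread is unknown, and differences are given by size and by whether both TAC arrays agree. Both differences use the same sham array, so an error on it would enter both. The SD of the log2 difference over the tested genes was 0.335 between TAC 1 and sham, 0.234 between TAC 2 and sham and 0.252 between the TAC arrays. TAC 2 was thus nearer to the sham array than to TAC 1. On TAC 1, 596 genes were higher and 511 lower than on the sham array by at least 0.5. On TAC 2 these counts were 222 and 138.

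On both TAC arrays, 147 of the 11166 genes were higher by at least 0.5 (1.32%) and 87 were lower (0.779%). At a difference of at least 1 on both, 23 genes were higher (0.206%) and 6 lower (0.0537%). By any size, 3840 genes were higher on both TAC arrays (34.4%) and 4326 lower on both (38.7%), and these shares are the background for the counts of small differences below. Only 4 genes differed from sham by at least 0.5 in opposite directions on the TAC arrays. Of the 147 higher genes, 125 were further from sham on TAC 1, with a median difference of 0.98 there and 0.65 on TAC 2. Of the 87 lower genes, 67 were further from sham on TAC 1, with medians of -0.80 and -0.64. Over all tested genes the median of TAC 1 minus TAC 2 was -0.02. The share of all tested genes above their TAC 2 level on TAC 1 was not counted. Counts of TAC 1 against TAC 2 in the lists below therefore lack that background. The mean difference exceeded the gap between the TAC arrays for 144 of the 147 and 86 of the 87 genes. Levels are those of each gene's brightest probe. Of the 147 higher genes 62 had another probe above the filter, and for 25 of them at least 1 such probe was also past 0.5 on both arrays, while for 14 at least 1 lay on the other side of sham in the mean. Of the 87 lower genes these numbers were 29, 8 and 2. The genes just inside the limit were Adap1, Bcat1 and Mxra7 at 0.50 in the smaller of their differences, and Pacsin3 (0.499), Treml1 (0.498) and Col4a2 (0.497) lay just outside.

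**Figure D1:**
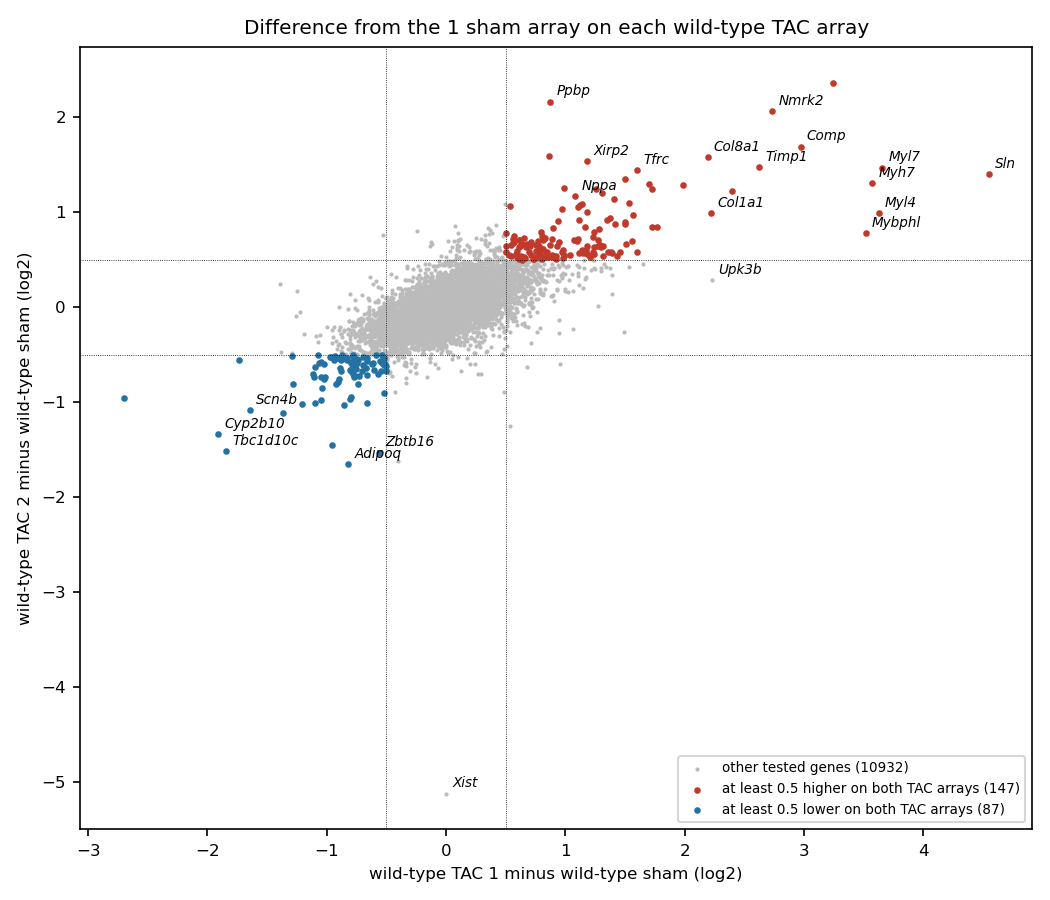
Each point is 1 of the 11166 tested genes, with its log2 difference from the wild-type sham array on TAC 1 (x axis) and on TAC 2 (y axis); dotted lines mark differences of 0.5. The 147 genes higher and 87 genes lower on both arrays are coloured, the atrial-type genes Sln, Myl7, Myl4 and Mybphl lie far to the right, and Xist lies alone at -5.12 on TAC 2. Both axes use the same sham array.

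limma's test over all 6 arrays, which lends the single sham array the spread of the replicated groups, called no gene between wild-type TAC and sham after Benjamini-Hochberg adjustment (0 of 11166, 0.0%), and 398 genes had an unadjusted p under 0.05. The smallest adjusted p was 0.127, shared by Nppa, Acta1, Fhl1, Nmrk2 and the predicted gene 4833412C05Rik. When limma's spread was taken from the 3 wild-type arrays alone, with 1 residual degree of freedom, 11 genes passed. These were Nppa, Acta1, Nmrk2, Tfrc, Fhl1, Xirp2, Col8a1, Uck2, Lman1l and 4833412C05Rik, which were higher, and Tbc1d10c, which was lower, with adjusted p from 0.0104 to 0.0449. The number of calls thus depends on which arrays the spread is taken from. In what follows genes are described as higher or lower by the size rule, not as passing a test.

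Genes of the fetal and growth programme were higher after TAC. Of 20 tested members of this list, 12 were higher by at least 0.5 on both TAC arrays, none was lower by that much, and 18 were higher on both by any size. The median difference of the list was 1.14 on TAC 1 and 0.80 on TAC 2, against -0.02 and 0.00 over all tested genes.

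The natriuretic peptides, hormones that the stretched heart releases to promote salt loss and vessel relaxation, were already among the brightest genes in sham. Nppa, the atrial peptide, was at 13.30 in sham and at 14.39 and 14.47 after TAC, a mean difference of 1.13 with a limma standard error (SE) of 0.14. Nppb, the brain-type peptide of the ventricle, was at 13.68 in sham and at 14.48 and 14.29 after TAC. For both peptides the TAC arrays lay above the sham array and close to each other. The genes that process and receive them were nearer to sham: Corin, the protease that matures the atrial peptide, was at 12.43 in sham and 12.39 on both TAC arrays, and the clearance receptor gene Npr3 differed by 0.27 and 0.24.

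Contractile proteins of the fetal or slow type followed the same direction. Acta1, skeletal alpha-actin, was at 13.28 in sham and at 14.38 and 14.33 after TAC, 2.11-fold higher in the mean. Myh7, the slow beta-myosin heavy chain, was at 7.31 in sham, 10.88 on TAC 1 and 8.61 on TAC 2. Its difference was thus 3.57 on one TAC array and 1.31 on the other, the same in direction but far apart in size. Myh6, the fast adult alpha-myosin that dominates the mouse ventricle, was at 14.15, 14.06 and 14.14, near the top of the scale. The adult contractile list had no gene past 0.5 on both arrays among its 17 tested members, and its medians were 0.03 and -0.04.

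Fhl1, a LIM protein of the sarcomere that senses stretch, was at 12.56 in sham and at 13.97 and 13.71 after TAC. Xirp2, which binds actin at the junctions between muscle cells, was at 10.73 in sham and at 11.91 and 12.27. Synpo2l, a Z-disc protein, was at 7.69, 9.42 and 8.94. These 3 genes were higher on both TAC arrays by more than the TAC arrays differed from each other. Ankrd1, a stress-induced cofactor at the Z-disc and in the nucleus, had 2 probes that disagreed. The brighter, at 13.74 in sham, was higher by less than 0.5 on both arrays (14.24 and 14.07), and the dimmer, at 11.01 in sham, was at 12.94 and 12.51 after TAC. Csrp3, the muscle LIM protein, was the only member of the list lower on both arrays, by -0.11 and -0.01.

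Nmrk2, Tfrc and Uck2, also of the fetal and growth list, were each higher by more than 1 on both arrays. Nmrk2, a nicotinamide riboside kinase that opens a route to NAD, was at 8.89 in sham and at 11.63 and 10.95 after TAC, 5.27-fold higher in the mean (log2 2.40, SE 0.28) on its brightest probe. Its 2 other probes above the filter disagreed, at 6.79, 8.78 and 8.51 and at 7.82, 7.34 and 7.73, and the median over the probes gave a mean difference of 0.83. The other NAD genes did not share this: of 12 tested members of a list of NAD synthesis and use that left Nmrk2 out, none passed 0.5 on both arrays and 8 were lower on both. Tfrc, the transferrin receptor that brings iron into the cell, was at 9.89 in sham and at 11.49 and 11.34 after TAC. In the iron list the exporter gene Slc40a1 (ferroportin) lay in the opposite direction, at 9.68 in sham and 8.98 and 9.07 after TAC, and it was the only one of 13 tested members lower by 0.5 on both arrays. Its second probe, below the filter at 5.48 in sham, differed by 0.05 in the mean. Uck2, which makes pyrimidine nucleotides by salvage, was at 9.58 in sham and at 10.88 and 10.78 after TAC. Rcan1, the calcineurin inhibitor that calcineurin itself induces, was higher by 1.23 and 0.50, whereas none of 10 tested calcineurin and NFAT genes passed 0.5 on both arrays.

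**Figure D2:**
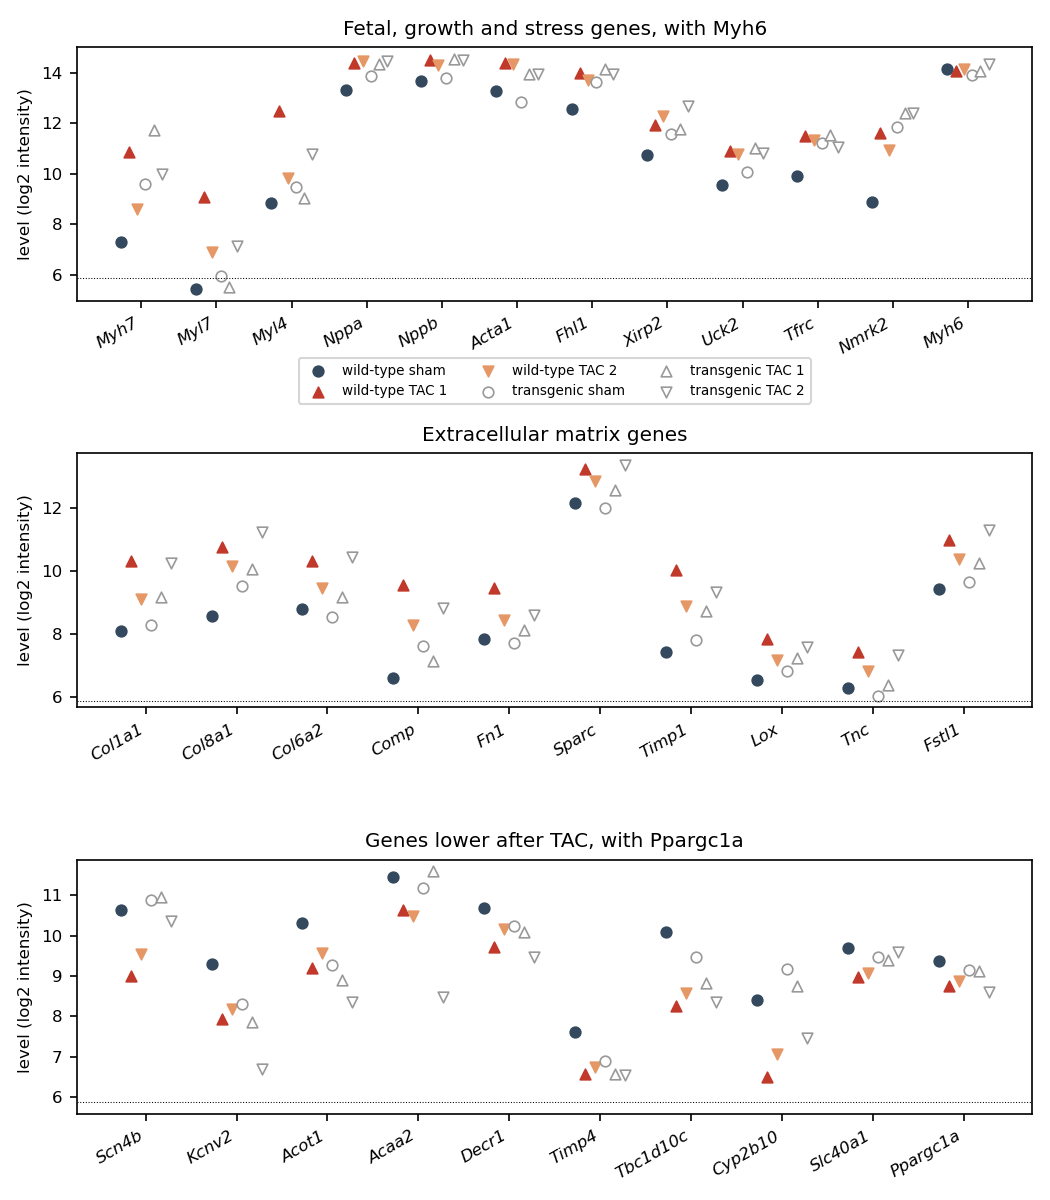
Log2 intensity (y axis) of named genes on each of the 6 arrays, with wild-type arrays as filled and transgenic arrays as open symbols; the dotted line marks the intensity filter. In the upper and middle panels both wild-type TAC arrays lie above the wild-type sham array except for Myh6 (14.15, 14.06 and 14.14), and in the lower panel both lie below it.

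Promoter sequence was set beside these values, since the fetal genes were higher together. RefSeq start sites of assembly GRCm38.p6 gave windows for 8977 of the tested genes and for 11 of the 12 fetal-list genes past 0.5. The 250 bases before each start were searched on both strands for the CArG box, to which serum response factor is known to bind, for the MCAT core CATTCC of TEAD factors and for the GATA core AGATAA. The motifs can overlap, and a match describes letters only. A CArG box was found in 3 of the 11 fetal genes (Acta1, Myl7 and Fhl1), against 1.57% of all tested genes with a window. It was also found in 8 of 107 genes higher by 0.5 on both arrays (7.48%) and in 1 of 65 genes lower (1.54%). The MCAT core was in 4 of the 11, against 13% of tested genes, 22.4% of the higher and 15.4% of the lower genes. The GATA core was in 1 of the 11, against 7.55%, 8.41% and 6.15%. No chance test was made on these counts. The windows of Nppa and Nmrk2 held none of the motifs.

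The 120 bases before the start are shown for 4 of these genes because they hold the matches, in capitals: the CArG box of Acta1 (bases -73 to -64 from the start), Myl7 (-61 to -52) and Fhl1 (-102 to -93), the MCAT core of Acta1 (-46 to -41), Myl7 (-70 to -65) and, on the other strand, Nppb (-105 to -100), and the GATA core of Nppb (-84 to -79). The stretches are chr8:123894776-123894895 on the minus strand for Acta1, chr11:5898783-5898902 on the minus strand for Myl7, chrX:56779563-56779682 on the plus strand for Fhl1 (the first of 2 start sites) and chr4:147985780-147985899 on the plus strand for Nppb.
Acta1: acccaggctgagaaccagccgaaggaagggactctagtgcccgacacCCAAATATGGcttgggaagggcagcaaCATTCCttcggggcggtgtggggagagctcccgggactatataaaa
Myl7: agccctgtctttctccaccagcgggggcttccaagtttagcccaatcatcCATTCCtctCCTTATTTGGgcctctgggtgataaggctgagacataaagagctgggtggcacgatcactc
Fhl1: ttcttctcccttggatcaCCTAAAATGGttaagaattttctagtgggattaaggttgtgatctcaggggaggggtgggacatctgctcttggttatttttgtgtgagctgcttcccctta
Nppb: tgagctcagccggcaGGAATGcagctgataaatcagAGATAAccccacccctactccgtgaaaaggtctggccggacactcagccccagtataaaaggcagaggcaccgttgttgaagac

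A broader list of genes that serum response factor and its partner MRTF are known to drive, mostly of smooth muscle and the cytoskeleton, differed less. Of 21 tested members 2 were higher by 0.5 on both arrays and 16 were higher by any size (76.2%, against 34.4% of all tested genes). The median was 0.53 on TAC 1 and 0.17 on TAC 2. The 2 genes were Actg2, gamma smooth muscle actin, at 6.54 in sham and 7.70 and 7.38 after TAC, and Myl9, a smooth muscle myosin light chain, at 9.10, 9.94 and 9.63. Acta2, alpha smooth muscle actin, was at 13.01, 13.91 and 13.13, so that only TAC 1 stood apart. Srf itself differed by 0.20 and 0.01. Of 9 tested smooth muscle and pericyte markers none passed 0.5 on both arrays, and their medians were 0.27 and 0.12.

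Among secreted growth factors and cytokines, 1 of 31 tested genes was higher by 0.5 on both arrays, Fgf6, at 6.61 in sham and 7.79 and 7.25 after TAC. Ctf1, which encodes cardiotrophin 1, a cytokine that enlarges heart muscle cells, was the only one lower, at 8.45, 7.67 and 7.82. The list had medians of 0.16 and 0.08, and some members stood apart on TAC 1 alone. Ccn2, connective tissue growth factor, did not pass on both arrays. Ccn2 was at 12.43 in sham, 13.81 on TAC 1 and 12.84 on TAC 2. Inhba, the activin A subunit, differed by 1.65 and 0.45, Tgfb2 by 1.11 and 0.32 and Tgfb3 by 0.97 and 0.34, whereas Tgfb1 differed by -0.05 and 0.01 and Bmp4 by 0.59 and 0.21. Igf1 differed by 0.58 and 0.49.

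Of 10 tested genes of natriuretic, angiotensin and endothelin signalling, Ace, the angiotensin-converting enzyme, passed 0.5 on both arrays. It was at 8.59 in sham and at 9.53 and 9.50 after TAC on its brightest probe. Its other probes above the filter, at 5.93 and 5.87 in sham, differed by 0.29 and 0.22 and by 0.57 and 0.29. The substrate gene Agt differed by -0.20 and -0.23, the receptor gene Agtr1a by -0.25 and -0.07, and Edn1, the endothelin 1 precursor, by -0.49 and -0.25. Immediate early genes, which answer a stimulus within minutes, split between the arrays: all 14 tested members were higher on TAC 1 than on TAC 2, with medians of 0.46 and -0.08. Only Egr2 (1.32 and 0.54) and Egr3 (1.39 and 0.57) were higher by 0.5 on both, whereas Fos differed by 0.56 and -0.07 and Junb by 0.49 and -0.32. The other Egr3 probe above the filter, at 6.18 in sham, differed by -0.24 and -0.15. None of 18 cardiac transcription factor genes passed 0.5 on both arrays. The nearest was Hopx, a homeodomain cofactor of heart muscle, at 12.86, 12.06 and 12.39.

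Extracellular matrix genes were higher as a group. Over the lists of collagens, other matrix proteins and crosslinking enzymes, 17 of 65 tested genes were higher by at least 0.5 on both TAC arrays, none was lower, and 51 were higher on both by any size (78.5%, against 34.4% of all tested genes). On TAC 1, 61 of the 65 genes were above their TAC 2 level, as were 125 of all 147 genes higher by 0.5 on both arrays. The median difference was 0.76 on TAC 1 and 0.27 on TAC 2.

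Of 19 tested collagens, 7 passed 0.5 on both arrays and the medians were 1.12 and 0.42. Col1a1, the main chain of the fibrous type I collagen, was at 8.11 in sham and at 10.34 and 9.10 after TAC. Col8a1, a short-chain collagen of vessel walls, was at 8.58, 10.78 and 10.16, with a mean difference of 1.88 (SE 0.46). Col15a1 and Col16a1, of basement membrane zones and fibril surfaces, and Col6a1 and Col6a2, of beaded filaments, differed by 1.30 to 1.51 on TAC 1 and by 0.58 to 0.66 on TAC 2. Col4a3, of the basement membrane, was at 5.92 in sham and at 6.75 and 6.48. The probes for Col3a1 (6.69, 7.29 and 6.97) and Col1a2 (5.83, 6.15 and 5.90) were dim, although these chains are abundant in fibrous tissue. Col14a1 lay on opposite sides of sham, at 0.96 on TAC 1 and -0.61 on TAC 2.

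Of 31 other matrix proteins, 8 were higher by 0.5 on both arrays. Comp, cartilage oligomeric matrix protein, which bridges collagen fibres, was at 6.59 in sham and at 9.56 and 8.28 after TAC, 5.03-fold higher in the mean. Mfap5, a microfibril protein, was at 9.55, 11.32 and 10.40. Fn1 (fibronectin, the provisional matrix on which collagen assembles) was at 7.86, 9.46 and 8.44, and Sparc, a collagen-binding protein of remodelling tissue, at 12.17, 13.24 and 12.87. Tnc (tenascin C), Lum (lumican), Fbln2 (fibulin 2) and Fmod (fibromodulin) were the other 4. Every one of the 8 was higher on TAC 1 than on TAC 2. Postn, often used as a mark of activated fibroblasts, could not be compared: its 3 probes lay between 5.25 and 5.63 on the wild-type arrays, below the filter.

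Among the crosslinking and processing enzymes, Lox (lysyl oxidase), which joins collagen and elastin chains, was at 6.53 in sham and at 7.85 and 7.18 after TAC. Pcolce, an enhancer of procollagen cleavage, was at 9.41, 10.33 and 9.91. These were the 2 of 15 tested genes past 0.5 on both arrays. The inhibitors of matrix-degrading enzymes went apart. Timp1 was at 7.43 in sham and at 10.05 and 8.90 after TAC, 4.14-fold higher in the mean. Timp4 was at 7.60 in sham and at 6.57 and 6.75 after TAC, 1.93-fold lower, and Timp2 and Timp3 did not pass 0.5 on both arrays. Of the degrading enzymes Mmp9 was lower (7.03, 6.25 and 6.33, just above background), and Mmp14 lay on opposite sides, at 1.49 and -0.27.

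Fibroblast markers were higher with the matrix genes. Of 15 tested, 5 were higher by 0.5 on both arrays and 10 by any size, and the list has 0 genes in common with the matrix lists. Their summed intensity was 22680 in sham, 43280 on TAC 1 and 31590 on TAC 2. Fstl1 (9.43, 10.99 and 10.40), Serpinf1 (11.54, 12.81 and 12.24), Pi16, Vim and Mgp were the 5. The lineage markers Pdgfra (0.21 and 0.08) and Tcf21 (0.28 and -0.42) were not among them. The part of fibroblast number in the matrix differences was not tested.

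Several genes outside every list lay with this group by size and, as background, encode secreted or matrix-associated proteins. Dkk3, a secreted Dickkopf protein, was at 7.85 in sham and at 10.25 and 9.07 after TAC, and Ecrg4, a secreted peptide precursor, was at 6.29, 8.28 and 7.57. In all, 97 of the 147 higher genes and 71 of the 87 lower genes were in none of the 46 lists.

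**Figure D3:**
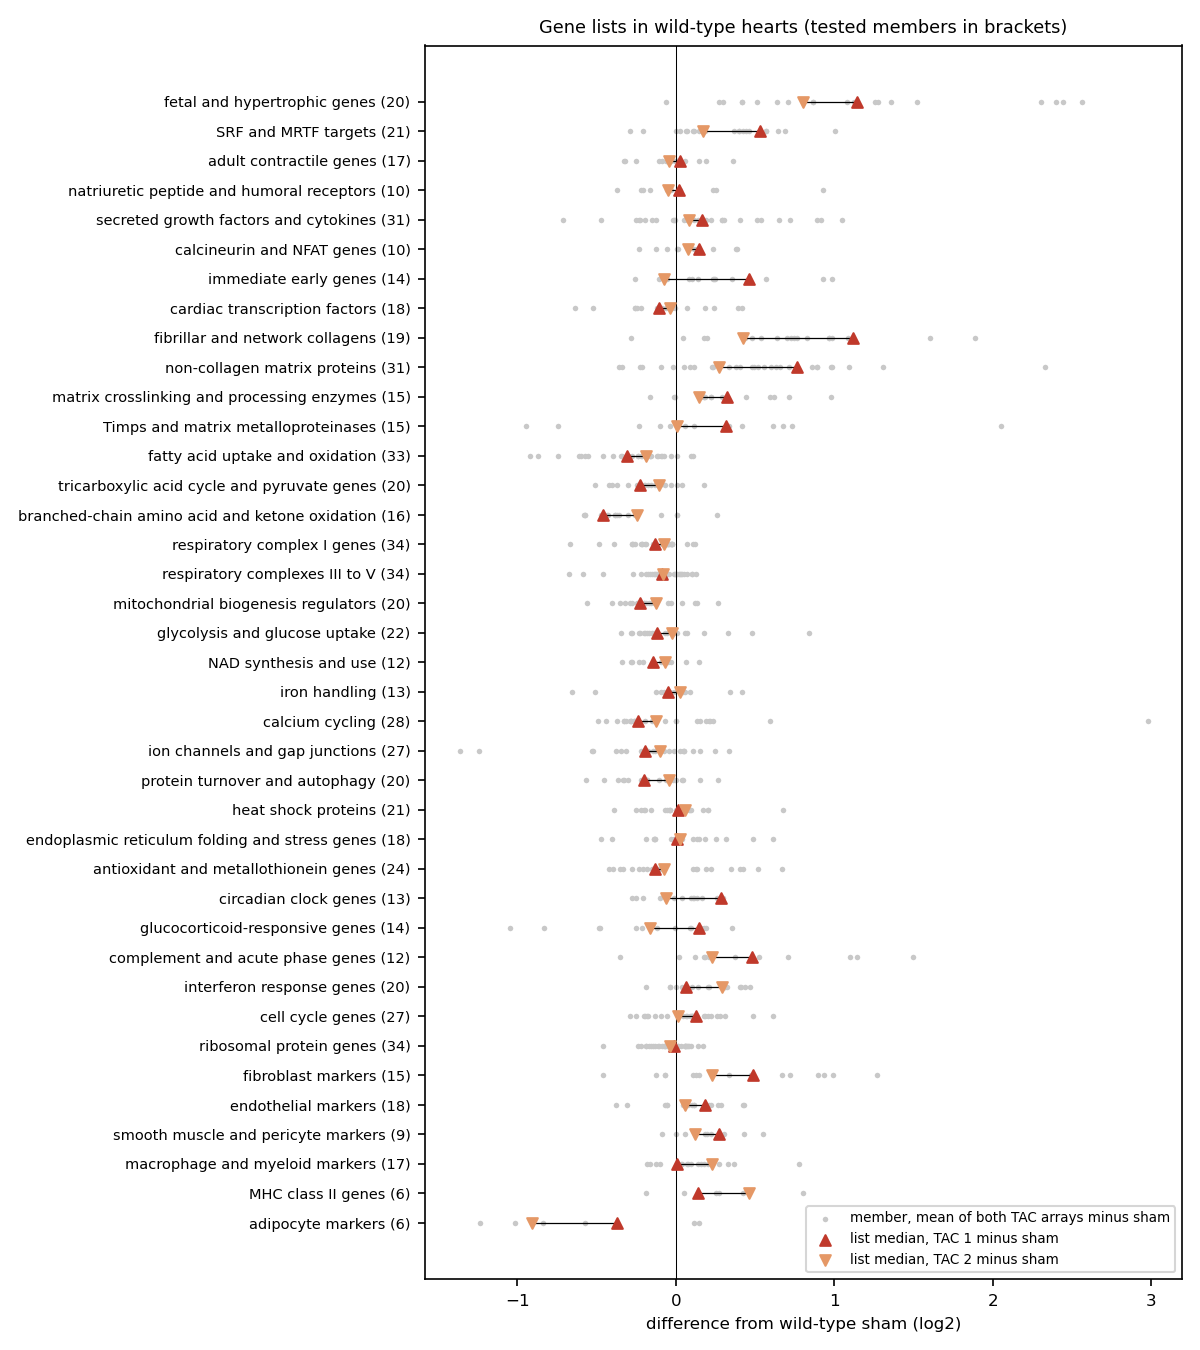
For each gene list (number of tested members in brackets), grey points are the members' mean log2 difference of both wild-type TAC arrays from sham, and triangles are the list median on TAC 1 (pointing up) and TAC 2 (pointing down). The fetal and collagen lists lie furthest to the right on TAC 1 (medians 1.14 and 1.12), where on TAC 2 they are at 0.80 and 0.42, the oxidation lists lie slightly left of 0, and the adipocyte list lies furthest to the left on TAC 2.

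Genes of mitochondrial fuel use were lower by small amounts. Over the lists of fatty acid oxidation, the tricarboxylic acid cycle, branched-chain amino acid and ketone oxidation, the respiratory chain and their regulators, 111 of 157 tested genes were lower on both TAC arrays (70.7%, against 38.7% of all tested genes) and 17 were higher on both. Only 3 of the 157 were lower by at least 0.5 on both arrays and none was higher by that much. The median difference was -0.18 on TAC 1 and -0.11 on TAC 2, against -0.02 and 0.00 over all tested genes.

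The 3 genes belong to fatty acid oxidation. Acot1, a thioesterase that frees fatty acids from coenzyme A, was at 10.30 in sham and at 9.20 and 9.57 after TAC on its brightest probe, whereas its 2 dimmer probes differed by -0.15 and -0.30 in the mean. Acaa2, the last enzyme of the mitochondrial spiral, was at 11.45, 10.65 and 10.50, and Decr1, needed for unsaturated fatty acids, at 10.70, 9.73 and 10.18. Of the 33 tested members 25 were lower on both arrays, with medians of -0.31 and -0.19. The carnitine shuttle gene Cpt1b, the usual control point of entry, differed by -0.23 and 0.05, and the uptake gene Cd36 by -0.28 and -0.03.

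Branched-chain amino acid and ketone oxidation had the lowest medians of the fuel lists, -0.46 and -0.24. Of 16 tested genes 13 were lower on both arrays, and 15 were lower on TAC 1 than on TAC 2. Ivd, of leucine breakdown, was at 11.99 in sham and at 11.33 and 11.51 after TAC, and both subunits of the branched-chain dehydrogenase differed by -0.69 and -0.25 (Bckdha) and -0.65 and -0.23 (Bckdhb). Of 20 genes of the tricarboxylic acid cycle and pyruvate entry, 16 were lower on both arrays, led by Dlat of the pyruvate dehydrogenase complex, which differed by -0.65 and -0.37. Respiratory complex I was lower on both arrays in 25 of 34 tested genes, with medians of -0.13 and -0.08, and complexes III to V in 17 of 34, with medians of -0.09 and -0.08.

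Of 20 regulators of mitochondrial gene expression 15 were lower on both arrays. Ppargc1a, the coactivator PGC-1alpha, was at 9.38 in sham and at 8.75 and 8.88 after TAC, and its partners Esrrg and Ppara differed by -0.47 and -0.34 and by -0.37 and -0.34. Glycolysis did not mirror this. Of 22 tested genes 6 were higher and 12 lower on both arrays and none passed 0.5 on both. Pfkp, a phosphofructokinase isoform, differed by 1.30 and 0.38, and Hk1, the hexokinase of the fetal heart, by 0.90 and 0.06. Other lower genes of mitochondrial or lipid metabolism, named after their values were seen, were Gcdh of lysine breakdown (10.43, 9.38 and 9.85) and Pdp2, the phosphatase that activates pyruvate dehydrogenase (11.47, 10.45 and 10.88).

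**Figure D4:**
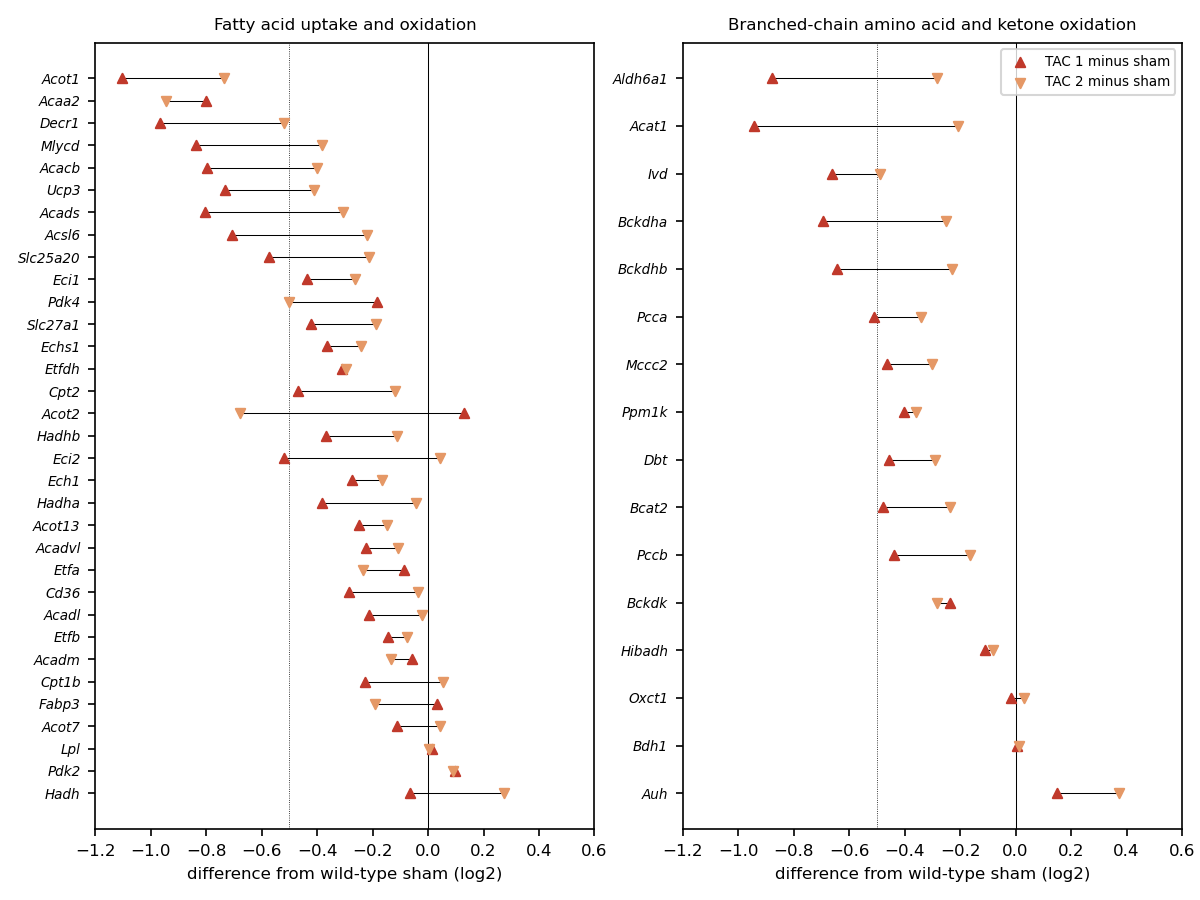
Log2 difference from the wild-type sham array (x axis) of every tested gene of fatty acid uptake and oxidation (33, left) and of branched-chain amino acid and ketone oxidation (16, right), with TAC 1 as upward and TAC 2 as downward triangles; the dotted line marks -0.5. Of these, 25 and 13 genes lie left of 0 on both arrays, and Acot1, Acaa2 and Decr1 lie left of the dotted line on both.

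Genes of excitation were mostly near sham, with clear exceptions. Of 27 tested ion channel and gap junction genes, 2 were lower by at least 0.5 on both arrays, and both passed 1. Scn4b, a beta subunit of voltage-gated sodium channels, was at 10.63 in sham and at 8.99 and 9.55 after TAC, 2.58-fold lower in the mean. Kcnv2, a silent potassium channel subunit, was at 9.30, 7.93 and 8.19, 2.36-fold lower. Kcnd2 and Hcn2, a transient outward potassium channel and a pacemaker channel, came next: Kcnd2 differed by -0.49 and -0.55, and Hcn2 by -0.62 and -0.44. The ventricular gap junction gene Gja1 differed by 0.00 and 0.05.

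Calcium cycling genes had medians of -0.24 and -0.13 over 28 tested members, and 15 were lower on both arrays. Ryr2, the release channel of the sarcoplasmic reticulum, was at 12.35 in sham and at 12.02 and 12.11 after TAC. Atp2a2, the pump SERCA2, whose level is known to drop in failing hearts, was at 14.17, 14.41 and 14.30 on its brightest probe, near the top of the scale. Its other probes above the filter, at 13.86, 14.00 and 13.80 and at 10.94, 11.21 and 10.62, lay above sham on TAC 1 and below it on TAC 2. The mean difference of the median over its 4 probes was near 0. Pln, the pump's inhibitor phospholamban, differed by -0.39 and -0.13. Sln (sarcolipin), the pump's atrial inhibitor, was the only member past 0.5 and is described with the atrial genes.

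Complement and acute phase genes were higher in part. Of 12 tested, 4 were higher by 0.5 on both arrays and 9 by any size (75%). C4a was at 7.50 in sham and at 9.20 and 8.79 after TAC, and C4b at 7.40, 8.81 and 8.27. These genes are near-identical copies, so which of them a probe reports is uncertain. Serpina3n, an acute phase protease inhibitor, was at 9.84, 10.96 and 10.91, and C1qc, of the first complement component, at 9.23, 10.04 and 9.84. Macrophage markers differed less, with medians of 0.01 and 0.23 over 17 tested genes and summed intensities of 10760 in sham, 12740 on TAC 1 and 13900 on TAC 2. Lyz2 (lysozyme) was the only one past 0.5 on both arrays, at 9.76, 10.56 and 10.51.

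Interferon response and MHC class II genes had higher medians on TAC 2 than on TAC 1. None of 20 interferon response genes passed 0.5 on both arrays, but 11 were higher on both and none lower on both, and 14 were higher on TAC 2 than on TAC 1, with medians of 0.06 and 0.29. Of 6 tested MHC class II genes 4 were higher on both arrays, with medians of 0.14 and 0.46. Cd74, the invariant chain, passed 0.5 on both arrays on its brightest probe, at 9.04, 9.58 and 10.11. Its other probes above the filter differed by 0.16 and 0.66 and by 0.35 and 0.92, and so passed on TAC 2 only. Heat shock genes (medians 0.01 and 0.06), endoplasmic reticulum stress genes (0.01 and 0.02), ribosomal protein genes (-0.01 and -0.04) and cell cycle genes (0.12 and 0.01) stayed within 0.2 of sham in the median on both arrays. Single members past 0.5 were the heat shock gene Hspa1l (0.83 and 0.52), the NADPH oxidase Nox4 (0.75 and 0.59) and, lower, the autophagy gene Map1lc3a (-0.52 and -0.62).

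The 15 largest mean decreases, with predicted genes passed over, also held genes of varied kind. Tbc1d10c, a GTPase-activating protein known from lymphocytes, was at 10.10 in sham and at 8.26 and 8.59 after TAC on its brightest probe. Its 3 other probes, all at 6.60 or less in sham, differed by -0.21 to 0.10, so the decrease rests on 1 probe. The 6 other tested lymphocyte markers did not pass 0.5 on both arrays, but Gzmm, granzyme M of lymphocytes, which was outside the list, was lower as well (10.15, 8.87 and 9.34). Cyp2b10 and Cyp2e1, which oxidise drugs and lipids, were at 8.40, 6.49 and 7.06 and at 8.87, 7.91 and 7.41. Ano10 (10.77, 9.57 and 9.75), Ttll1 (10.63, 9.53 and 9.62), Lrtm1 and Sun3 completed the group with the genes named elsewhere here. Ano10 too was lower on 1 probe only, its other 2 lying near background.

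Apart from Xist, the widest gaps between the TAC arrays were in genes known from the atrium and in Myh7. Sln was at 5.95 in sham, 10.50 on TAC 1 and 7.35 on TAC 2. Mybphl, an atrial myosin-binding protein, was at 5.74, 9.26 and 6.52, and the atrial myosin light chains Myl4 and Myl7 were at 8.85, 12.48 and 9.84 and at 5.44, 9.09 and 6.90. Upk3b, a gene of the surface mesothelium, was at 5.68, 7.91 and 5.96. All 5 were far higher on TAC 1, and in sham all but Myl4 lay within 0.1 of the filter level of 5.88 or below it, so their differences are understated. In transgenic hearts the same genes were highest on TAC 2, with Sln at 8.09 and Myl4 at 10.80, and near transgenic sham on TAC 1 (6.04 and 9.03). Myh7 did not follow them there, at 9.59 in transgenic sham and highest on TAC 1, at 11.72. Of the 8 atrial markers of a separate list on the arrays, 5 were tested, and their summed intensity was 14770 in sham, 12720 on TAC 1 and 12410 on TAC 2. Sbk2, Sbk3 and Dhrs9 were below the filter. The part of atrial tissue in the samples was not tested. Without Myl4 and Myl7, 10 of the 18 remaining tested fetal-list genes were past 0.5 on both arrays.

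Genes known from platelets were highest on TAC 2, a set noticed after the values were seen. Ppbp, a platelet chemokine, was at 7.09 in sham, 7.96 on TAC 1 and 9.25 on TAC 2, and Tubb1, the tubulin of platelets, at 6.38, 7.25 and 7.97. The other Tubb1 probe above the filter, at 6.16 in sham, was lower on both arrays, by -0.27 and -0.24. A Tubb1 probe below the filter differed by 0.19 and 0.16. Pf4, platelet factor 4, was at 7.66, 7.54 and 8.32. The 5 genes furthest above TAC 1 on TAC 2 were Ppbp with Clec2d (10.52 in sham, 9.14 and 10.77), Snai3 (8.93, 7.68 and 9.10), Hsd11b1 (9.93, 9.40 and 10.69) and Uba6 (10.99, 9.25 and 10.43), of which all but Ppbp and Hsd11b1 were within 0.6 of sham on TAC 2. Erythroid markers did not share this direction, with medians of -0.54 and -0.12 over 4 tested genes.

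Adipocyte markers were lower, more so on TAC 2. Of 6 tested, 2 were lower by 0.5 on both arrays, and the summed intensity of the list was 2577 in sham, 1972 on TAC 1 and 1870 on TAC 2. Adipoq (adiponectin, a hormone of fat cells) was at 8.09, 7.27 and 6.44, and Scd1, which desaturates fatty acids, at 10.09, 9.43 and 9.07. Car3 was at 7.80, 7.40 and 6.18. Adig and Thrsp, also known from fat tissue and named after their values were seen, differed by -1.05 and -0.98 and by -0.91 and -0.79. Zbtb16, a glucocorticoid-induced factor, was at 9.34, 8.78 and 7.81. The part of fat tissue on the hearts in these differences was not tested.

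Transcripts of the sex chromosomes separated TAC 2 from the other wild-type arrays. Xist, the RNA that coats the inactive X chromosome of females, was at 10.50 in sham, 10.50 on TAC 1 and 5.38 on TAC 2, and all 4 of its probes were lowest on TAC 2 among the wild-type arrays. Kdm6a, which escapes X inactivation, was at 10.57, 10.50 and 9.93. One of 2 probes of the Y-linked Kdm5d was at 5.59 in sham, 5.54 on TAC 1 and 6.24 on TAC 2, and the other Y-linked probes, of Uty and Eif2s3y, differed from sham by at most 0.3 on either TAC array. The sham array and TAC 1 were thus alike in Xist, and the transgenic sham array, with Xist at 5.41, was like TAC 2. When Xist high or low was a covariate in limma, its effect was set by the wild-type TAC pair alone. No other group holds both high and low Xist. The contrast became TAC 1 minus sham, 1 array against 1, with the spread of the transgenic TAC pair. These 2 arrays were alike in Xist (10.50 on both), but the contrast rests on 1 array against 1 and leaves TAC 2 out. This fit cannot show whether the TAC 2 differences hold apart from Xist. Fhl1 and Timp1 lie on the X chromosome, and both were higher on TAC 1 than on TAC 2. So were 125 of all 147 genes higher by 0.5 on both arrays.

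**Figure D5:**
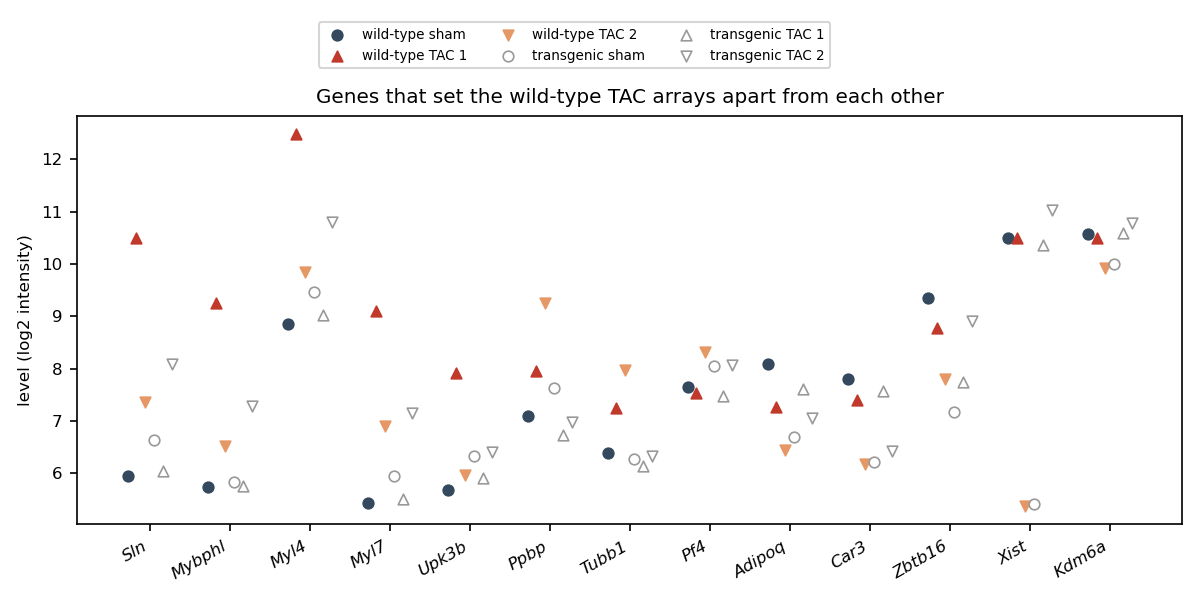
Log2 intensity (y axis) on each of the 6 arrays of genes that set the wild-type TAC arrays apart, with wild-type arrays as filled and transgenic arrays as open symbols. Among the wild-type arrays, TAC 1 is highest for Sln, Mybphl, Myl4, Myl7 and Upk3b. Wild-type TAC 2 is, among the same arrays, highest for Ppbp, Tubb1 and Pf4 and lowest for Adipoq, Zbtb16 and Xist (5.38). Xist is at 5.41 on the transgenic sham array.

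The transgenic arrays gave a comparison of TAC with sham that shares no array with the wild-type one. Xist was at 5.41 on its sham array and at 10.36 and 11.03 on its TAC arrays. One probe of the Y-linked Kdm5d was at 6.44, 5.52 and 5.65. TAC and Xist level therefore cannot be told apart in this comparison. There, 161 of 11166 genes were higher by 0.5 on both TAC arrays (1.44%) and 171 lower (1.53%). By any size 3472 were higher (31.1%) and 3353 lower (30%). Of the 147 genes chosen as higher in wild-type hearts, 46 were higher by 0.5 on both transgenic TAC arrays (31.3%), 1 was lower by that much, and 111 were higher by any size (75.5%). Of the 87 genes lower in wild-type hearts, 15 were lower by 0.5 on both transgenic TAC arrays (17.2%), 1 was higher by that much, and 57 were lower by any size (65.5%). The median transgenic difference was 0.56 over the 147 genes and -0.33 over the 87, against 0.01 over all tested genes. The shares were thus above those of all tested genes in the same direction as in wild type. The transgenic sham array itself was above wild-type sham by 0.5 for 48 of the 147 genes (32.7%, against 5.36% of all tested genes). It was below by 0.5 for 40 of the 87 (46%, against 5.04%). What part of the called differences comes from the wild-type sham array was not tested.

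Lists followed in part. The collagen list had a median of 0.91 in transgenic hearts, and its genes Col1a1 and Col6a2 differed by 1.41 and 1.26 in the mean, beside 1.61 and 1.08 in wild type. Timp1 differed by 1.22 (2.05 in wild type), Acta1 by 1.11 (1.08) and Nppb by 0.73 (0.71). The tricarboxylic acid cycle list had a transgenic median of -0.51, beside -0.17 in wild type. Other lists followed less or not at all. The fetal list had a transgenic median of 0.49 (0.97 in wild type) and the SRF and MRTF targets -0.04 (0.36). Complement genes were at 0.03 (0.29) and adipocyte markers at 0.53 (-0.70). Differences between the genotypes were not tested for lists. For other genes the mean transgenic difference was smaller in size: 0.08 for Tfrc (1.52 in wild type), 0.40 for Fhl1 (1.27) and 0.54 for Nmrk2 (2.40). On the transgenic sham array these genes already stood at 11.22, 13.65 and 11.87, near or above their level after TAC in wild type.

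The difference between the wild-type and the transgenic response was tested with limma's interaction term over all 6 arrays. No gene passed after adjustment (0 of 11166, 0.0%), and 183 had an unadjusted p under 0.05, so no difference between the genotypes named here passed a test. C4a, C4b, Serpina3n, Ppbp, Adipoq and Scd1 lay on opposite sides of sham in the 2 genotypes on all TAC arrays, whereas C1qc was above sham on all of them. Serpina3n differed by 1.10 in wild type and -0.23 in transgenic hearts (difference of the responses 1.33, SE 0.30, adjusted p = 1.00 in limma), and C4a by 1.50 and -0.34. Levels of C4a on the transgenic arrays were 8.39 in sham and 7.85 and 8.26 after TAC, between the wild-type sham and TAC levels.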

How the data were processed

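Mouse heart RNA was copied into biotin-labelled cRNA and hybridised to Illumina bead arrays, per the labels. The authors' deposited table holds linear intensity values for each probe. Sorted, the 6 columns lay within 0.0064 of each other in log2, as quantile normalization leaves them; the sources used here name no software and no background correction. Intensities were kept as deposited, 12 values under 32 were raised to 32, and the log2 was used. No background was subtracted.

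The platform annotation gave a single gene symbol to 34885 of 45281 probes, several symbols to 18 and none to 10378. A RefSeq gene table (assembly GRCm38.p6) supplied current symbols. Each of 19053 genes was taken at its brightest probe over the 6 arrays (9171 genes had more than 1), and 11166 genes above the 50th percentile of probes (intensity 58.7) were compared. The number of arrays limits the precision: 1 against 2. The labels name no separate animals, and p-values therefore reflect only how these arrays vary, which may be technical.

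A gene was counted as higher or lower when both TAC arrays lay at least 0.5 on the same side of sham on the log2 scale. limma 3.58.1 (R 4.3.3; lmFit, eBayes with an intensity trend, Benjamini-Hochberg adjustment over 11166 genes, threshold 0.05) was fitted to the 4 groups; SEs are from this fit. The steps were tested on simulated data. Tables and figures were made with Python 3.11.15, pandas and matplotlib.

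The comparison, the 46 gene lists and a set of genes named whatever their values were chosen with earlier results of these data known. That set was Kdm4a, Xist, the Y-linked genes, Atp2a2, Nmrk2, Timp1, Postn, Fhl1, Ccn2, Ankrd1, Acta1, both natriuretic peptides and both myosin heavy chains. Further genes were named by rule: the 15 largest mean increases and decreases past 0.5 on both arrays whose mean exceeded the gap between the TAC arrays (predicted genes passed over), up to 4 members per list with the largest smaller difference, and the 5 genes with the widest gap between the TAC arrays in each direction. Others were named after their values were seen, to show list members that did not pass or genes in no list. The alternatives tried were other probe summaries, filters, background and normalization, leaving out each TAC array, other spreads for limma, Xist as a covariate, and other limits of size.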

Additional observations from a re-analysis of the deposited data

Results flagged for a closer look

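For 9 genes named above, both wild-type TAC arrays lay at least 0.5 to one side of wild-type sham and both transgenic TAC arrays lay on the other side of transgenic sham. Over all tested genes this was so for 8 higher and 11 lower genes. The difference of the mean responses, wild type minus transgenic on the log2 scale, was 2.28 for Ppbp, 1.84 for C4a, 1.39 for C4b, 1.33 for Serpina3n and 1.28 for Myl9. It was -2.21 for Zbtb16, -1.88 for Adipoq, -1.58 for Cyp2e1 and -1.47 for Scd1. In limma's interaction test none of them passed after adjustment (adjusted p = 1.00 for each), with unadjusted p between 0.00187 and 0.0159. Each genotype has 1 sham array, and Xist was low on wild-type TAC 2 and on transgenic sham, at 5.38 and 5.41. On these arrays Zbtb16 was at 7.81 and 7.16 and Adipoq at 6.44 and 6.69, their lowest levels within each genotype. A fit with Xist high or low as a covariate takes its effect from the wild-type TAC pair alone. It therefore cannot separate Xist from the difference of the responses. No group holds 4 arrays, so no array could be set against the others of its group.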

How the results depend on the processing

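The counts of 147 higher and 87 lower genes stayed within 1.5 times without the filter, with a filter at the 75th percentile, after cyclic loess and when the mean also had to exceed the gap between the TAC arrays. They became 23 and 6 at a limit of 1, 402 and 330 when the 5th percentile of each array was subtracted, and 103 and 57 with the median over probes. With only 1 TAC array there were 222 to 596 higher and 138 to 511 lower genes. limma called 0 genes for wild-type TAC against sham under 8 alternatives, 5 without the filter, and 11 with the wild-type arrays alone or without transgenic replicate 1 or 2, which leave 1 residual degree of freedom; leaving out 1 array gave 0 to 11 calls. For the difference of the responses it called 0 to 1 genes when 1 array was left out, the 1 being Xist without wild-type TAC 1. Of 41 named genes, 4 called by size were no longer past 0.5 with the median over probes (Xirp2, Tbc1d10c, Ano10 and Acot1), and Ccn2 and Ankrd1 then passed; no called gene changed direction. No list median of at least 0.2 in size changed sign under the alternatives run on it. No paired analysis was possible because the labels give no number shared between sham and TAC arrays. Signal near background limits genes such as Myl7, Sln and Postn, and the top of the scale limits Nppa and Myh6.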

Other observations

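Some further lists were compared between TAC and sham in wild-type hearts. Of 18 tested endothelial markers 11 were higher on both TAC arrays and none passed 0.5 on both; Pecam1, an adhesion protein of vessel lining cells, differed by 0.44 and 0.42. Of 24 antioxidant genes 14 were lower on both, with medians of -0.13 and -0.08. Circadian clock genes lay apart on the TAC arrays, with medians of 0.28 and -0.06 over 13 genes, and the clock repressor gene Per1 differed by 0.47 and -0.49. Of 14 glucocorticoid-responsive genes, Zbtb16 and Pik3r1 (12.28 in sham, 11.22 and 11.69 after TAC) were lower by 0.5 on both arrays. Protein turnover and autophagy genes had medians of -0.20 and -0.04 over 20 genes, skeletal muscle markers -0.06 and -0.19 over 5, neuronal and Schwann markers 0.27 and 0.04 over 3, mesothelial markers 0.63 and 0.28 over 3 (all 3 higher on both arrays), and sex-linked genes -0.03 and -0.40 over 6.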
